A study of Drosophila melanogaster with 2 samples.

Results

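The ecdysone-responsive regulators considered here were 10 genes: br, Eip74EF, Eip93F, Eip63E, E23, crol, Kr-h1, chinmo, tai and ImpE2. They were chosen by name from 13945 protein-coding genes, with earlier results of these data known, and their peaks were selected on the authors' peak calls. A peak belonged to a gene if its summit lay inside the gene, or if the protein-coding transcription start site (TSS) nearest to it, within 10 kb, was one of that gene. By this rule 13 of 1814 peaks of the authors' conservative list belonged to 7 of the 10 genes, and 10.2% of all protein-coding genes had such a peak. Binding was measured by ChIP-seq with an antibody against GFP, in whole pupae aged 2 days from transgenic flies whose CG10348 protein was fused to eGFP. The protein is a predicted C2H2 zinc-finger factor. Both biological replicates formed 1 group, without a second genotype, stage or treatment, and chromatin came from all tissues of the pupa together. Signal is the authors' peak strength, whose scaling is not stated. Pooled and replicate values are set side by side as deposited, and the sources do not say whether they share a scale, so a ratio between the replicates is read against the ratio over all peaks. What drives expression of the fusion is not given in the labels.

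Ecdysone, the steroid that drives moulting and metamorphosis, acts through a heterodimer of the nuclear receptors EcR and Usp. The receptor switches on early genes, several of which encode transcription factors that pass the signal on to later tissue-specific genes. Among the 10 genes, br encodes BTB zinc-finger proteins that specify the pupal stage, Eip74EF encodes ETS-domain factors, and Eip93F (E93) encodes a helix-turn-helix factor required for adult differentiation and for cell death at metamorphosis. The BTB zinc-finger gene chinmo acts in larval stages before br and Eip93F, and Kr-h1 encodes a zinc-finger factor induced by juvenile hormone. The zinc-finger gene crol is needed for leg and wing formation, and tai encodes a p160-type coactivator of the ecdysone receptor. The other three encode effectors: E23 an ABC transporter, Eip63E a cyclin-dependent kinase, and ImpE2 a protein secreted by imaginal discs.

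The sequences under the peaks are shown because most summits were poorer in G and C than the DNA around them. Each is the 100 bp centred on a conservative summit, on the plus strand of the RefSeq Release 6 genome (dm6), for the strongest peak of each gene with a peak except Eip74EF, and for a second E23 peak. Capitals mark matches, on either strand, to any of 8 sequences that were searched. These were AGGTCA (a nuclear receptor half-site), TAATTA (a homeodomain core), GATAAG (of zinc-finger factors such as Serpent), the AT-rich TTAAAA with the AT-rich AAATAT, which can overlap each other, GAGAGAG (a dinucleotide repeat), and for EVI1-type zinc fingers GACAAGATA (amino-terminal) with GAAGATGAG (carboxy-terminal).
E23, chr2L:3355011-3355110: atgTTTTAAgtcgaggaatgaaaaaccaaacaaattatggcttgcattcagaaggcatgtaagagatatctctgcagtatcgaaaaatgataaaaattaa
E23, chr2L:3338947-3339046: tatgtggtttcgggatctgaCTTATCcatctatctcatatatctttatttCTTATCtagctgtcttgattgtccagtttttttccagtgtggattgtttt
Eip63E, chr3L:3517997-3518096: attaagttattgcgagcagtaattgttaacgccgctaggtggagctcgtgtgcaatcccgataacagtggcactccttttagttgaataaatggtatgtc
br, chrX:1618835-1618934: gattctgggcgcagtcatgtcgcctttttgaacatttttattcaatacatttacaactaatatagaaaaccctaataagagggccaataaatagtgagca
Eip93F, chr3R:21993068-21993167: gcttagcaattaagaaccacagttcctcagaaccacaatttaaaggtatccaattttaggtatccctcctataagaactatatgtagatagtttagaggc
chinmo, chr2L:1649744-1649843: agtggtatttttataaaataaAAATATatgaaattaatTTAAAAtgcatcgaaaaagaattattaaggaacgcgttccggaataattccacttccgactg
tai, chr2L:9207266-9207365: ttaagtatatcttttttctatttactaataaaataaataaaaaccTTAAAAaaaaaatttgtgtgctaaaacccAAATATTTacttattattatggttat

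The tai window held 16% G and C, the lowest of the 13, and carried TTAAAA and AAATAT. The second E23 window, inside the gene, held GATAAG at a pair of places, and the Eip63E, br and Eip93F windows held none of the 8 sequences.

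Eip74EF carried the most peaks of the 10 genes, and its 4 summit windows differed from one another. They are given in the direction of transcription of this minus-strand gene, from its first TSS onwards, each on the plus strand.
Eip74EF, chr3L:17611536-17611635: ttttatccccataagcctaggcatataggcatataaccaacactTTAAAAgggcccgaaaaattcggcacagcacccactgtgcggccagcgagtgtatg
Eip74EF, chr3L:17603551-17603650: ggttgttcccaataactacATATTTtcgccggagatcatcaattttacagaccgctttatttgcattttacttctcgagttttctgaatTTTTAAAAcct
Eip74EF, chr3L:17586611-17586710: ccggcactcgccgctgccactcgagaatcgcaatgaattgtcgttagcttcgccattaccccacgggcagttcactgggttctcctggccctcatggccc
Eip74EF, chr3L:17567017-17567116: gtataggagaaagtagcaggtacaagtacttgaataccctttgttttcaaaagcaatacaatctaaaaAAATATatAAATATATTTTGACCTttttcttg

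The third window held 61% G and C, the highest among the 13, and no match. In the fourth, with 27%, an AGGTCA half-site of nuclear receptors was read on the minus strand next to AAATAT repeats. It was the 1 member summit with that sequence, which 1.95% of the 1799 conservative summit windows on the main chromosome arms held. In flank windows it occurred in 2 of 26 at the members and in 2.28% of all.

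Peaks were found at br, Eip74EF and Eip93F, which encode transcription factors of metamorphosis, at the effector genes E23 and Eip63E, at the coactivator gene tai and upstream of chinmo. There were 4 conservative peaks at Eip74EF, 3 at E23, 2 at Eip63E and 1 each at br, Eip93F, chinmo and tai. No conservative peak belonged to crol, Kr-h1 or ImpE2, and these genes had none in the authors' other pooled list (the optimal list) or in either replicate's own list. The share of all protein-coding genes, 10.2%, includes many short ones: of the 1977 genes of at least 10 kb, 31.5% had a peak, and 9 of the 10 members were that long. The members had been picked with these peaks in view, so the difference from either share was not tested. In the whole list 53 genes had 4 or more conservative peaks.

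**Figure D1:**
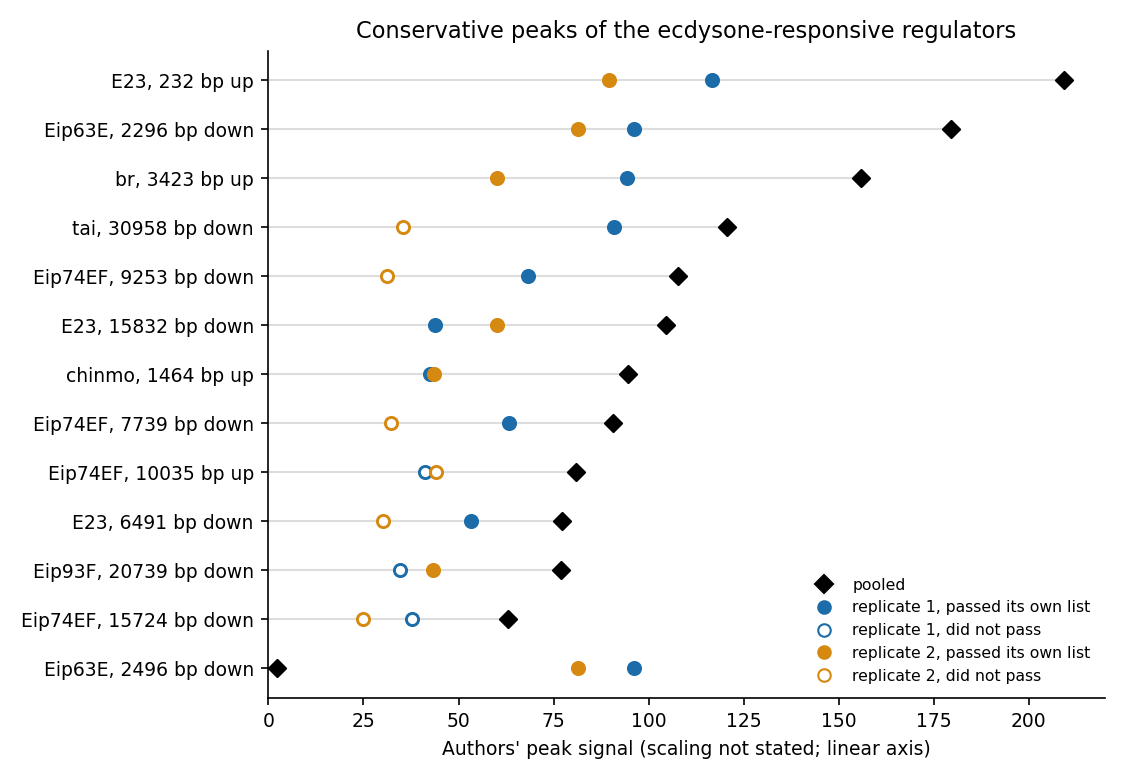
Signal of each conservative peak at the 10 genes, ordered by pooled signal, with the distance from the nearest TSS of its own gene and its side. Diamonds are the pooled signal, circles the signal of the region in each replicate's own ranked list, filled where it passed that replicate's threshold. The E23 promoter peak leads with 209, and the second Eip63E region, at 2.34, shares its replicate regions with the strong peak beside it.

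Among the early transcription factor genes, the strongest peak was at br (FBgn0283451), which spans chrX:1575132-1664869 on the plus strand. It lay at chrX:1618717-1619052 with a pooled signal of 156, rank 319 of 1814. The signal was 94.2 in replicate 1 and 60.2 in replicate 2, and the region passed in both replicates, as 43.6% of conservative peaks did. Its summit was in an intron of 14 of the 16 br transcripts, between clusters of br start sites and 3423 bp upstream of the closest one. Mur2B had the nearest TSS of all, at 730 bp, so the peak belonged to br by position inside the gene and not by nearest TSS. A ranked region nearby, at chrX:1617899-1618234, reached 45.3 without passing.

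Eip74EF (FBgn0000567, chr3L:17558672-17619325, minus strand) had peaks along its whole length, all in introns. Of the 3 start sites, 1 at the first base of the gene gives 3 long transcripts, and the others give 1 short transcript each. The first summit lay 7739 bp downstream of the long start site, at chr3L:17611418-17611753, with a pooled signal of 90.7. The signal there was 63.4 in replicate 1, where it passed, and 32.3 in replicate 2, where it did not. The second, at chr3L:17603433-17603768 in the same intron, was the weakest with 62.9, on 37.7 in replicate 1 and 24.9 in replicate 2, and passed in neither. It was the 1 member peak with no counterpart in the optimal list. Of all conservative peaks on the main arms 88.5% overlapped an optimal peak, and of the 13 member peaks 12 did.

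The third Eip74EF peak, at chr3L:17586493-17586828, lay in the fifth intron of the long transcripts, 10035 bp upstream of a short start site. Its pooled signal was 80.9, with 41.3 in replicate 1 and 44.2 in replicate 2, and it also passed in neither replicate alone. The authors' score, higher for more reproducible regions, was 1000 for it in the conservative list, as for 12 of the 13 member peaks. Its summits in the replicates were 34 bp apart. Of all conservative peaks on the main arms 29.0% were called in neither replicate, and of the 13 member peaks 2 were. The fourth, at chr3L:17566899-17567234, was in that same intron of the long transcripts and in the first intron of the short ones, and was the strongest, with 108. It had 68.4 in replicate 1, where it passed, and 31.3 in replicate 2. Replicate 2 therefore called 0 of these 4 regions, against 53.6% of all conservative peaks, although each had a ranked region there. The replicate 2 list began at a score of 832. The fourth and first regions came near it, with 789 and 745, and the third and second had 578 and 329. Replicate 1 called 2 of them, against 61.0% of all, and a further peak at chr3L:17587969-17588298 (34.8), whose pooled counterpart stood at 47.8 and did not pass.

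Eip93F (FBgn0264490, chr3R:21949114-22014539, plus strand) had 1 peak, in an intron 20739 bp downstream of its nearest TSS, at chr3R:21992950-21993285. The pooled signal was 77.1, rank 1093, with 34.7 in replicate 1 and 43.2 in replicate 2, and the region passed in replicate 2 alone. Its score in replicate 1 was 801, where that list began at 831. A stronger conservative peak lay outside the distance limit, at chr3R:21931304-21931639, 17642 bp upstream of the gene. It had a pooled signal of 128, with 79.9 in replicate 1 and 48.8 in replicate 2, and passed in both. Eip93F had the TSS nearest to it.

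Upstream of chinmo (FBgn0086758, chr2L:1651258-1704682, plus strand) 1 peak met the rule, at chr2L:1649626-1649961, 1464 bp before the first TSS. It had a pooled signal of 94.6 with 42.6 in replicate 1 and 43.5 in replicate 2, and passed in both. Another 2 conservative peaks farther upstream had chinmo as the gene of the nearest TSS but lay beyond 10 kb, in no protein-coding gene. The one at 12488 bp, chr2L:1638602-1638937, had a pooled signal of 102, with 77.3 in replicate 1 and 35.2 in replicate 2. The one at 18438 bp, chr2L:1632652-1632987, had 129, with 62.4 in replicate 1 and 70.7 in replicate 2, and each of the 2 passed in both replicates. The pooled signal of each was above that of the peak inside the limit, but in replicate 2 the one at 12488 bp, with 35.2, was below the 43.5 of the inside peak.

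At tai (FBgn0041092, chr2L:9166778-9250211, plus strand), which encodes the receptor coactivator, the single peak lay deep in an intron spanned by all 6 transcripts. It was at chr2L:9207148-9207483, 30958 bp downstream of the nearest TSS, the greatest distance among the members. The pooled signal was 121, rank 511, with 90.8 in replicate 1 and 35.5 in replicate 2. It passed in replicate 1 alone, and the log2 ratio of its replicate signals, 1.35, was the highest of the 13.

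Of the effector genes, E23 (FBgn0020445, chr2L:3334875-3354829, minus strand) held the strongest member peak. It was at its promoter, chr2L:3354893-3355228, 232 bp upstream of the only annotated TSS. Its pooled signal was 209, rank 173 of 1814, so that 9.48% of conservative peaks were stronger. The signal was 117 in replicate 1 and 89.5 in replicate 2, and both called it. The second intron held both other peaks. At chr2L:3338829-3339164 the pooled signal was 104, with 43.7 in replicate 1 and 60.0 in replicate 2, and both replicates called it with summits at the same base. This summit was 15832 bp from the E23 TSS, and the nearest TSS, at 6183 bp, was that of the neighbour CG15408. At chr2L:3348170-3348505 it was 77.2, with 53.2 in replicate 1, which called it, and 30.2 in replicate 2, which did not. The score of this last region in replicate 2 was 23, where that list began at 832. E23 had 29 ranked regions by the rule, 3 of which passed (10.3%), the highest share of the 10 genes. For the 10 genes together 13 of 546 regions passed (2.38%), against 1.33% of all pooled ranked regions on the main arms, whether or not these met the rule. The 13 include both Eip63E regions. The genes were picked with these peaks in view, so the difference was not tested. Eip74EF had 5.63%, the other 5 genes with a peak had 0.926% (br) to 2.13% (Eip63E), and crol, Kr-h1 and ImpE2 had 0.

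Eip63E (FBgn0005640, chr3L:3515751-3610521, plus strand) had its peaks close together near the start of a gene of 94.8 kb. The strong one, at chr3L:3517879-3518214, was 2296 bp into the gene, in an intron of the 5 transcripts that begin at its first TSS. Its pooled signal was 180, rank 236, with 96.3 in replicate 1 and 81.4 in replicate 2, and both called it. The second, at chr3L:3518079-3518414, overlapped the first and had a pooled signal of 2.34, rank 1813 of 1814. It rested on the same region of each replicate as the first, so that its score does not come from replicate regions of its own. Counted once, the gene had 1 peak, and the 10 genes had 12.

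**Figure D2:**
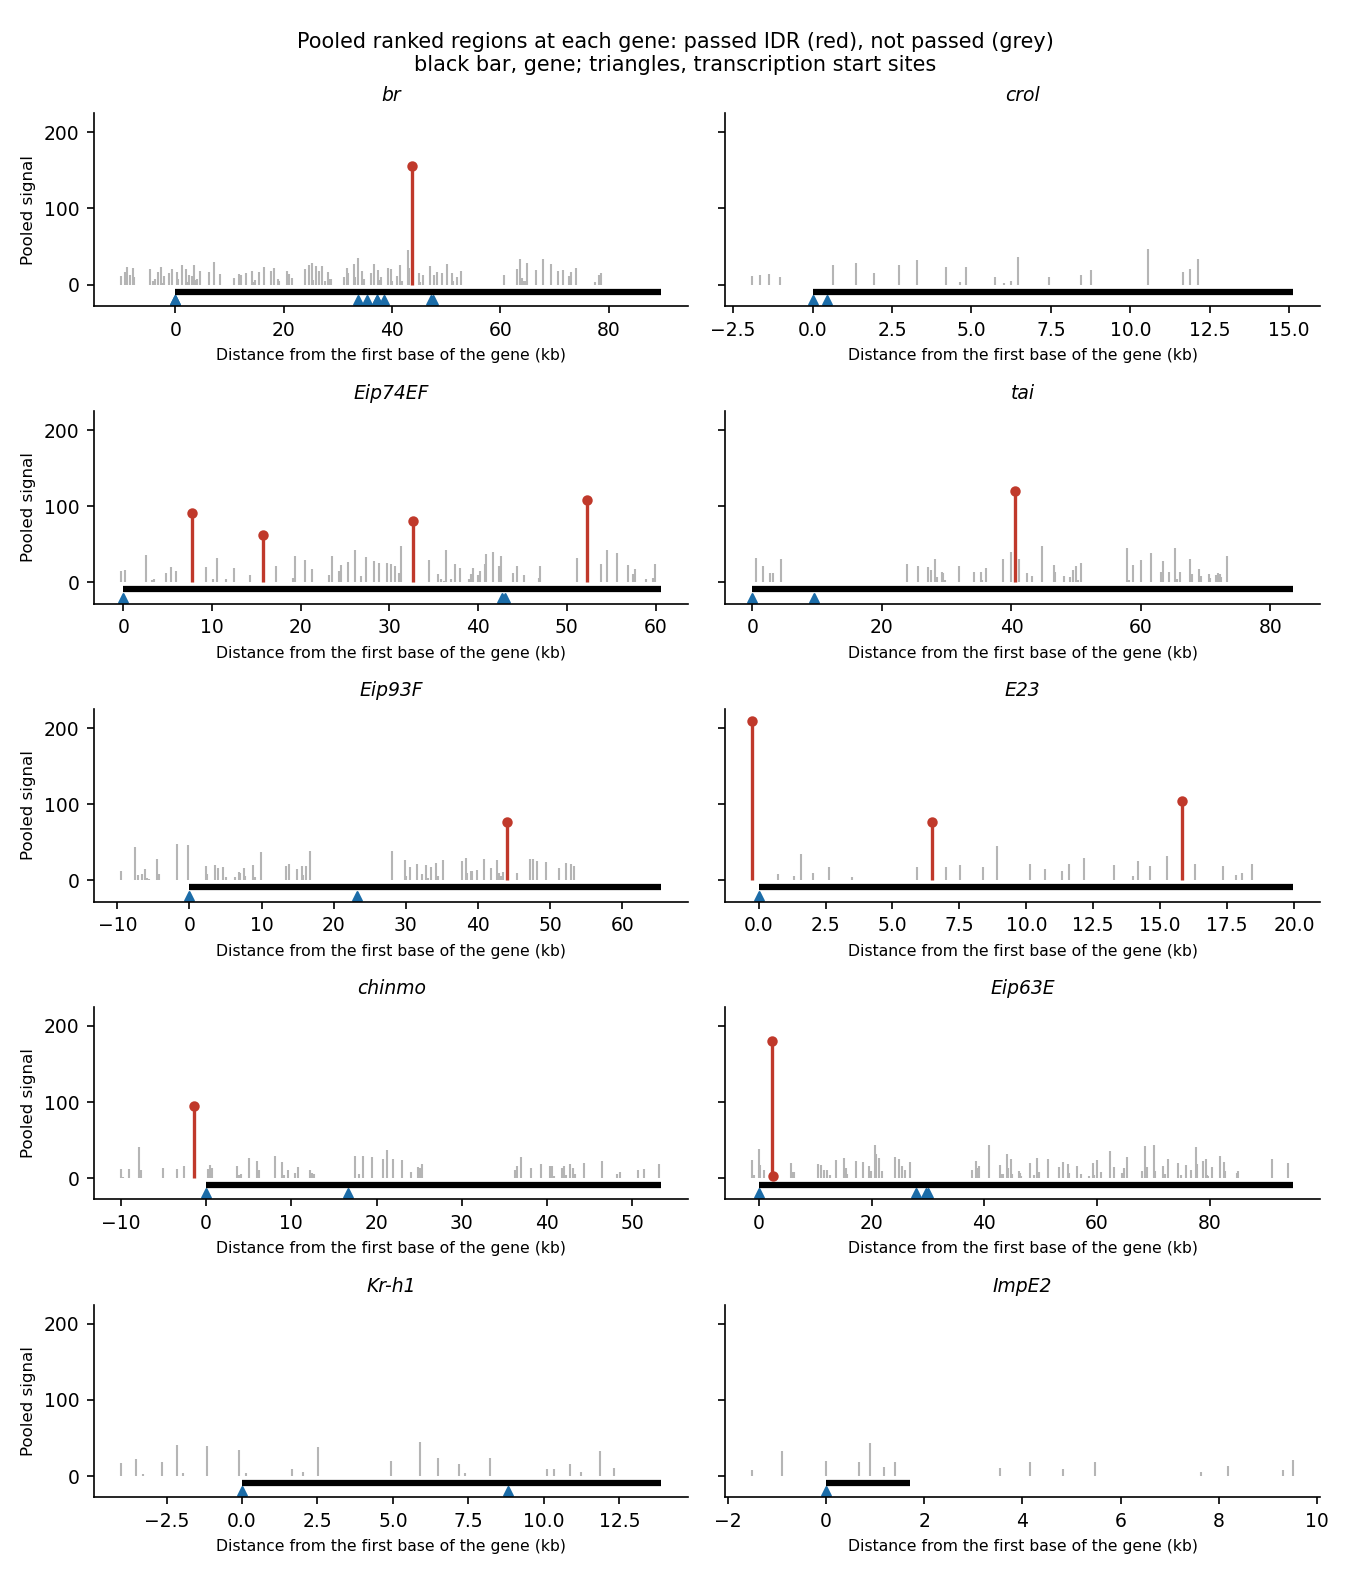
Pooled signal of every ranked region assigned to each of the 10 genes, by distance in kb from the first base of the gene in the direction of transcription, on 1 vertical scale. Red stems passed the IDR threshold, grey stems did not and touch no conservative peak. Eip74EF carries 4 red stems spread along the gene, while crol, Kr-h1 and ImpE2 carry grey stems only, up to 47.1.

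The genes without a peak had ranked regions too, but none passed. The median signal over all ranked regions of a gene was 16.9 at crol, 16.9 at Kr-h1 and 17.97 at ImpE2. These lay between the lowest and highest medians of the 7 genes with peaks, 13.8 at chinmo and 21.2 at Eip74EF. The irreproducible discovery rate (IDR) is low for a region that ranks high in both of the lists compared, and the authors' score rises as it falls. The conservative list began at a score of 830, an IDR of 0.01. At crol, 23 regions were ranked and the strongest reached 47.1 with a score of 429, in a coding exon 10091 bp from its nearest TSS. Kr-h1 had 24 ranked regions, of which the strongest reached 44.8 with a score of 334, in an intron 2914 bp from a TSS. ImpE2, a gene of 1.71 kb, had 15, and the strongest reached 43.4 with a score of 405, in its coding exon 897 bp from the TSS. Below-threshold regions at the 7 genes with peaks led with similar values, from 40.9 at chinmo to 48.1 at tai. The member peak of lowest score that passed, the second at Eip74EF, had a score of 946, and the closest score below the threshold was 679, an IDR of 0.0231, for a region of signal 47.0 at chr3R:21948706-21949041, 240 bp upstream of the first Eip93F TSS.

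Conservative peaks also lay near 2 of the genes without one. A peak of 360 at chr2L:6065997-6066194 was 16505 bp upstream of Kr-h1 and 11 bp from the TSS of CG9147. The Eip63E peaks were 5366 and 5566 bp from ImpE2, and Eip63E had the nearer TSS.

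Member peaks passed in both replicates about as often as other peaks. Of the 13, 6 were overlapped by a peak of each replicate's own thresholded list (46.2%, 95% Wilson interval 23.2 to 70.9), against 43.6% of 1799 conservative peaks on the main arms. Without the second Eip63E region this was 5 of 12 (41.7%, 19.3 to 68.0). Those 5 were the br and chinmo peaks, the strong Eip63E peak, and 2 of the E23 peaks. Replicate 1 called 10 of the 13 (76.9%, 49.7 to 91.8), against 61.0% of all, and replicate 2 called 7 (53.8%, 29.1 to 76.8), against 53.6%. The intervals cover counting error of peaks only. Each member peak had a ranked region in both replicates, and the summits of these regions were a median of 30 bp apart, from 0 to 126 bp, against 31 bp over all conservative peaks.

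The replicates were less evenly balanced at some members than at others. For 1794 conservative peaks a region was ranked in each replicate, and the log2 ratio of replicate 1 to replicate 2 signal was 0.27 at the median (SD 0.49). Among the members, the E23 promoter (0.38), both Eip63E regions (0.24), br (0.65), chinmo (-0.03) and the other 2 Eip74EF peaks (0.60 and -0.10) lay within 1 SD of that median. Higher than this range were tai (1.35), the fourth and first Eip74EF peaks (1.13 and 0.97) and the E23 peak 6491 bp into the gene (0.82). Lower were the other intronic E23 peak (-0.46) and Eip93F (-0.32). In all, 6 of 13 member peaks lay beyond 1 SD, against 28.3% of all peaks. The 4 higher peaks were called in replicate 1 and not in replicate 2.

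**Figure D3:**
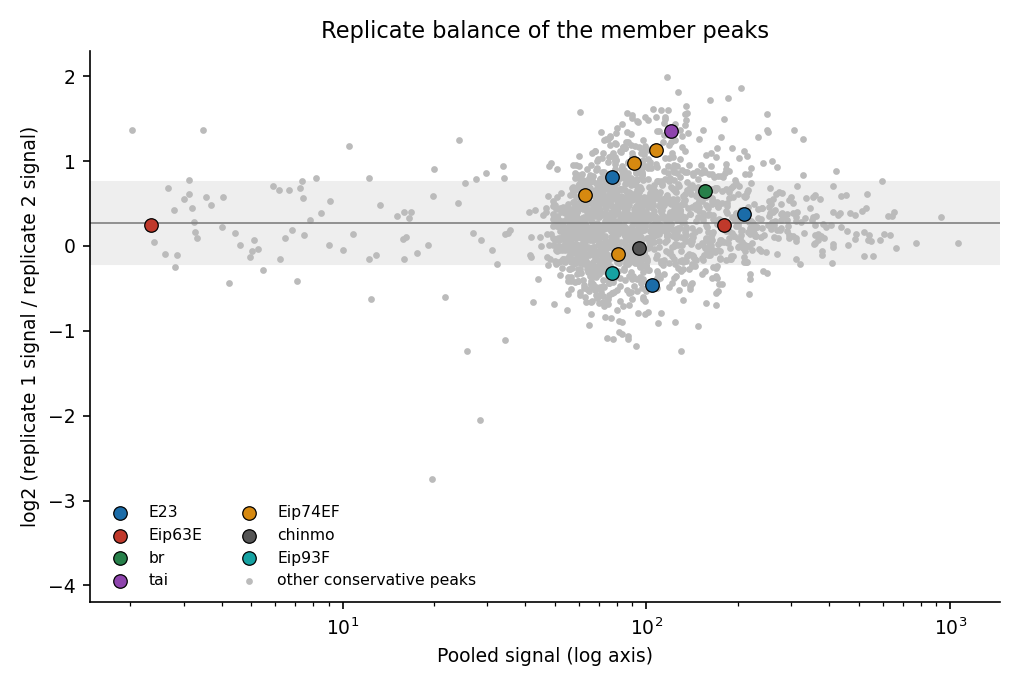
Log2 ratio of replicate 1 to replicate 2 signal against pooled signal (log axis), with member peaks in colour and the other conservative peaks on the main arms in grey. The line is the median of all peaks, 0.27, and the band 1 SD of 0.49 to each side. The 3 strongest member peaks lie inside the band, and tai and a pair of Eip74EF peaks lie above it.

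Member peaks lay farther from start sites than conservative peaks as a whole, and so did those of the nuclear receptor genes. The median distance to the nearest TSS was 6491 bp for the 13 member peaks and 1120 bp for all 1799. Of the 13, 8 (61.5%) were over 5 kb from any TSS, against 22.0% of all, and 2 (15.4%) were within 1 kb, against 47.8%. The 26 peaks of 7 nuclear receptor genes had a median distance of 8716 bp, and 18 of them (69.2%) were over 5 kb away. The member peaks within 1 kb were the E23 promoter peak and the br peak near Mur2B. Inside a protein-coding gene lay 11 of 13 (84.6%), against 66.2%, and all 11 were intronic in their gene. The rule used position relative to genes, so these shares are a description. Of the 10 members 9 were at least 10 kb long, as were 10 of the 15 nuclear receptor genes. The distances were not compared with those of peaks in other long genes. The median pooled signal was 94.6 at the members, from 2.34 to 209, and 86.6 over all conservative peaks.

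Base composition at the member summits was close to that of the other peaks. The median share of G and C in the summit window was 34% at the members, from 16% to 61%, and 33% over all. In flanks centred 300 bp to each side it was 47.5% at the members and 45% over all. It was lower at the summit than in the flanks for 10 of the 13 peaks (76.9%), against 78.8%. The exceptions were the third Eip74EF peak (61% at the summit, 36% in its flanks), the second Eip63E region (51% and 34.5%) and the first Eip74EF peak, at 48% in each.

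The AT-rich sequences were the most frequent of those searched. TTAAAA was in 6 of 13 member windows, against 31.9% of all conservative summit windows, and AAATAT in 5, against 30.1%. In the 26 flank windows of the members they occurred in 2 and 4, against 12.8% and 13.7% of all flank windows. GATAAG was in 1 member window, at E23, and in 72 of all 1799. No member window held TAATTA, which 8.95% of all summit windows held, or GAGAGAG, held by 1.11%. Neither EVI1-type sequence was in a member window, and 0.0556% of all held the amino-terminal one and 0.111% the carboxy-terminal one.

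**Figure D4:**
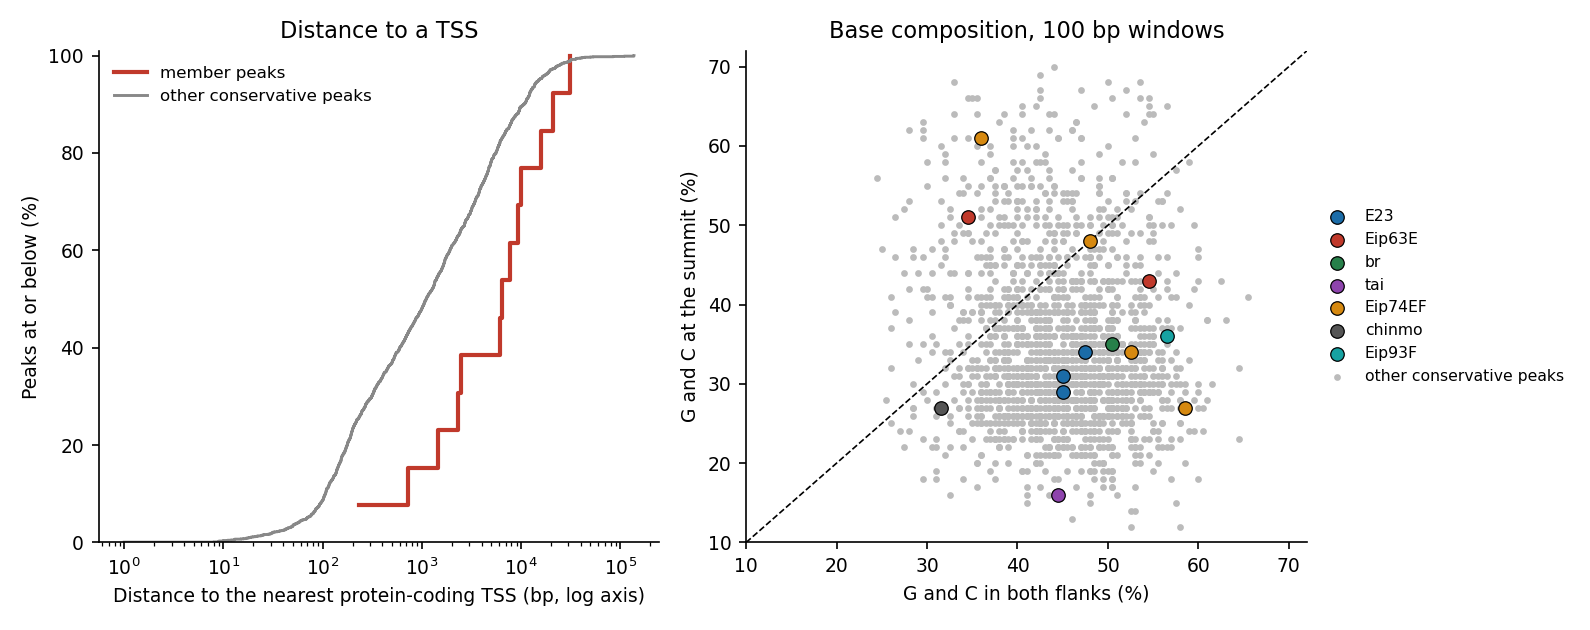
Left, cumulative share of peaks by distance to the nearest protein-coding TSS (log axis) for member peaks (red) and the other conservative peaks (grey). Right, G and C in the 100 bp summit window against the mean of both flank windows, with the dashed line at equal values. The red curve lies to the right of the grey one up to the farthest member peak, at 30958 bp, and 10 of 13 coloured points lie below the line.

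Other genes of the hormone pathways were read by the same rule. Of 48 such genes outside the 10, 14 had a conservative peak (29.2%), with 39 assignments of peaks to genes. Of the 48, 20 were at least 10 kb long, and by the same rule 10.2% of all protein-coding genes and 31.5% of those of at least 10 kb had a peak. Nuclear receptors held most of them, with 7 of 15 genes and 26 peaks, and 10 of the 15 were at least 10 kb long. The 26 include weak regions that overlap a stronger peak, at Hr3 (6.84) and at ftz-f1 (16.5). By the strongest peak of each gene, Hr4 led with 217, followed by Eip75B with 176, ftz-f1 with 120 and Hr3 with 113, and the other 5 Hr4 peaks ran from 57.5 to 189. The TSS nearest to the strongest Hr3 peak was that of CG34221. The 4 peaks of EcR, the receptor itself, reached 79.0. The lists of hormone synthesis and uptake had 1 of 11, the ecdysone importer gene Oatp74D with 56.4, although another gene had the nearest TSS. In juvenile hormone signalling 2 of 6 had one: the receptor gene gce, with 210 at 533 bp from its TSS, and the epoxide hydrolase gene Jheh1, with 80.9. Effector targets had 3 of 12: ImpL2, an insulin-binding protein gene, with 356, the cell death gene hid with 249, and Ldh with 85.7. Of 4 corepressor and coregulator genes only Smr, the SMRTER corepressor, had peaks, up to 71.7. CG15725 had the TSS nearest to the strongest of them. The lists were drawn up with earlier results known, and their shares were not tested.

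By number of peaks and highest pooled signal, the genes most like Eip74EF among the 26 others with 4 conservative peaks were CG32512 (highest pooled signal 104), SKIP (103) and unc-119 (113), against 108 at Eip74EF. The likeness rests on the pooled list of 2 replicates.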

How the data were processed

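The authors deposited regions ranked by IDR and lists thresholded on it, for the pooled samples and for each replicate, on dm6 with 1 shared control, per the deposited text beside each sample. The sources used here name no aligner or peak caller. The deposited signal is the authors' peak strength, the deposited score their scaled IDR, and the deposited −log10 values give the IDR in the ranked lists. Depth is unknown, as read counts were not used here, and the control was not analysed here. Members and lists were chosen with earlier results of these data known.

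The pooled ranked list that held all 1814 conservative peaks was taken as its source. Summits were placed on Ensembl release 115 genes (13945 protein-coding genes on the main arms), and sequence was read from the RefSeq genome of the same assembly. Replicate regions were those sharing most bases with a peak, with at least 1 bp of overlap. Windows were 100 bp. Python 3.11.15 and scipy 1.17.1 were used. The assignment was tested on simulated data (200 of 200 planted summits recovered). No test across genes was run, as the members were chosen on these peaks. Genes named were the 10 members, the gene of the nearest TSS, those most like Eip74EF, and pathway genes with a peak. Alternatives covered lists, distances, IDR, overlap and windows. Another 3 pathway names were not analysed here.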

Additional observations from a re-analysis of the deposited data

How the results depend on the processing

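Of 56 values of 7 results under 11 alternatives, 47 stayed within the tolerance (1.5-fold for counts, the Wilson interval for shares, 1 SD between replicates for medians) and 9 did not. The 47 include all 7 results with a limit of 5 kb, which left every member peak assigned as before. The Wilson interval is also wide, 23.2 to 70.9 for the share called in both replicates, so staying within it says little. With each replicate's list alone the number of member peaks ranged from 6 (replicate 2) to 10 (replicate 1), against 13, and the median signal, on the scale of 1 replicate, from 60.1 to 65.9. Leaving out the second Eip63E region gave 12 peaks and a median of 99.5. Without replicate 1, Eip74EF and tai had 0 peaks, and without replicate 2, Eip93F had 0. With the TSS criterion alone, 7 peaks at 4 genes were assigned, without br, Eip93F and tai, because peaks inside genes but over 10 kb from a TSS, or nearer to the TSS of another gene, no longer counted. At an IDR of at most 0.001, 6 peaks at 4 genes were left (br, Eip63E, E23 and tai), with 83.3% called in both replicates and a median pooled signal of 138. Both Eip63E regions are among these 6. The share over all conservative peaks at that IDR was not computed, so the 83.3% is not a result about the members. With a limit of 20 kb the number was 16, from 1 more peak at Eip93F and 2 more at chinmo, and with the optimal list 12. No paired analysis was possible because there is 1 group, and no second condition to pair with it. Unknown depth limits what a missing peak at crol, Kr-h1 or ImpE2 can show: it was not detected in these lists.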
